A study of Mus musculus with 12 samples.

Results

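The genes described here encode the proteins of the cytosolic ribosome. They were taken by name from the count table of RAW264.7 cells, a mouse macrophage line: every protein-coding gene whose symbol begins with Rpl or Rps followed by a digit, together with Rpsa, Rplp0, Rplp1 and Rplp2, leaving out the Rps6k kinases, Rps27l, the pseudogenes and Rps19bp1, and requiring a summed count of at least 1000 over the libraries. The rule found 81 of the 32688 genes in the table, of which 32 belong to the small subunit and 49 to the large subunit, and all 81 passed the filter on low counts. One matching gene, Rpl3l, fell under the minimum with a summed count of 822, and the members nearest above it were Rps27rt with 1058 and Rpl22l1 with 9164. Null cells (WT in the study's text) were compared with cells in which both Tfeb and Tfe3 had been disrupted by CRISPR (double knockout, DKO). Both lines were either left as controls, which the labels call untreated and the methods describe as given the solvent DMSO, or exposed to 100 µM etoposide for 8 h, which gave 4 groups of 3 libraries. Etoposide is an inhibitor of topoisomerase II that causes breaks in DNA. TFEB and TFE3 are transcription factors of the MiT/TFE family, best known for the genes of lysosomes and autophagy. The sources used here do not say whether either line came from a single clone, and the study calls the 3 samples of a group independent, at least after etoposide, without the labels saying whether they came from separate cultures, so the p-values measure the spread between these libraries, which may be in part technical.

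A ribosome is built from RNA and from a fixed set of proteins, most of them present in a single copy, and a growing cell gives a large part of its messenger RNA to them. The mRNAs of these proteins begin with a 5′ terminal oligopyrimidine (TOP) tract, a cytosine followed by a run of pyrimidines, through which LARP1 and the kinase mTORC1 hold or release them for translation, so that much of their control acts on translation rather than on mRNA level. Several ribosomal proteins also act away from the ribosome. RPL5 and RPL11 bind the ubiquitin ligase MDM2 when ribosome assembly fails and so stabilise p53, which is why the family is of interest in cells with damaged DNA.

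The start of transcription is shown for 7 of the members that the comparisons below turn on or that form a pair, because the TOP tract sits there and is the sequence feature that defines the family. RefSeq promoters on the build GRCm38.p6 were matched for 61 of the 81 genes. Each line gives 30 bases on the gene's own strand, 10 before the annotated start and 20 from it, with capitals for a cytosine followed by at least 4 pyrimidines that begins within 10 bases of the start. Where several cytosines met this rule, the capitals begin at the one nearest to the start. Rplp1 and Rps20 were not among the matched genes.
Rpl38 (chr11:114668570-114668599, plus strand): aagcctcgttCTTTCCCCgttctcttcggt
Rpl14 (chr9:120571507-120571536, plus strand): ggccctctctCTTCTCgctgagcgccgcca
Rpl13a (chr7:45128726-45128755, minus strand): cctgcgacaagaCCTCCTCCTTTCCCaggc
Rps26 (chr10:128626487-128626516, minus strand): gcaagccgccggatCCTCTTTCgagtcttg
Rpl22l1 (chr3:28805498-28805527, plus strand): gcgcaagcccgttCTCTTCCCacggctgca
Rps27 (chr3:90213629-90213658, minus strand): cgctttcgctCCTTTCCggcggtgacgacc
Rps27rt (chr9:114982720-114982749, minus strand): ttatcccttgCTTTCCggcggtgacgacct
The marked stretch begins exactly at the annotated start in Rpl38, Rpl14, Rps27 and Rps27rt, and a few bases inside it in Rpl13a, Rps26 and Rpl22l1. In Rpl14 and Rps27 its run of pyrimidines, led by a cytosine, already begins before the start. Rps27 and Rps27rt also hold a separate, earlier stretch that meets the rule and is left in small letters. Rps27rt is a copy of Rps27 elsewhere in the genome, and their printed starts share a run of 19 bases. No such tract was found within 10 bases of the annotated start of Rpl4, Rps25, Rpsa or Rpl7l1, which says only that these letters are not in that window of the annotation.

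Over the matched genes, a tract of this kind began within 10 bases of a start in 36 of 61 members (59.0%), against 37.1% of the 9825 other tested protein-coding genes in the same table. A cytosine exactly at a start and followed by at least 4 pyrimidines was found in 14 members (23.0%) and in 2.82% of the others. In the 300 bases around each start, 250 before it and 50 after it and read on both strands, CCGGAAG, a core of ETS-family sites such as those of GABP, was present in 24 members (39.3%) and in 20.1% of the other tested genes. AAGATGGC, a YY1 motif, was present in 6 members (9.84%) against 5.29%. CACGTG, the E-box that the MiT/TFE factors and MYC can bind, was present in 6 members (9.84%) against 11.6%, and its extended form TCACGTGA, which contains it, in 1 member (1.64%) against 2.06%. TATAAA was present in 7 members (11.5%) against 8.67%. A match is a description of the letters and not of a bound site.

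Libraries held between 29837255 and 61809316 counts. The disrupted genes were lower in every library labelled DKO: Tfeb was 16.6 to 17.2 CPM (counts relative to the size of the library, scaled by the TMM method here and below) in Null control libraries and 3.14 to 5.25 in DKO control libraries, and Tfe3 was 89.4 to 119 and 31.5 to 42.5. The 8 macrophage markers summed to between 4193 and 5132 CPM in all groups, the lowest single marker being at 4.72 CPM in a DKO etoposide library, while no fibroblast marker passed 1.38 CPM in any library. This matters because the titles of the DKO etoposide samples name MEFs, whereas their other labels give RAW264.7. The libraries of a group were not equally alike. DKO control replicate 1 stood apart from the other DKO control libraries, and Null control replicates 1 and 3 from each other, so calls of members that were lost without one of these libraries are named as such.

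The members took a similar share of the counts in all groups. Their share was 4.31% to 4.53% in Null control libraries, 4.32% to 4.66% in Null etoposide libraries, 4.35% to 4.82% in DKO control libraries and 4.72% to 5.02% in DKO etoposide libraries. The DKO etoposide range lay above both Null ranges and overlapped that of DKO control only through DKO control replicate 1. The mitochondrial share of counts was 19.4% to 21.7% in Null etoposide and 17.0% to 18.1% in DKO etoposide libraries. Of the other counts, the members took 5.02% to 5.55%, 5.52% to 5.78%, 5.21% to 5.84% and 5.70% to 6.12% in the same order of groups, and on this scale the DKO etoposide range overlapped those of Null etoposide and DKO control. With 3 libraries against 3, a two-sided permutation test cannot go below p = 0.1, and none was run on the shares. In bulk RNA, fewer cells of a kind and less RNA per cell cannot be told apart. The spread over the genes was much wider than over the groups. Per kilobase of annotated exon, in Null control cells, the member level ran from 3.69 CPM for Rps27rt to 1801 CPM for Rpl17, with a median of 223 CPM. Low values per length do not give the output of a gene with near-identical copies, because only reads that mapped to a single place were counted and 216 annotated pseudogenes of these genes stand in the table with 698 to 922 CPM summed per library.

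**Figure D1:**
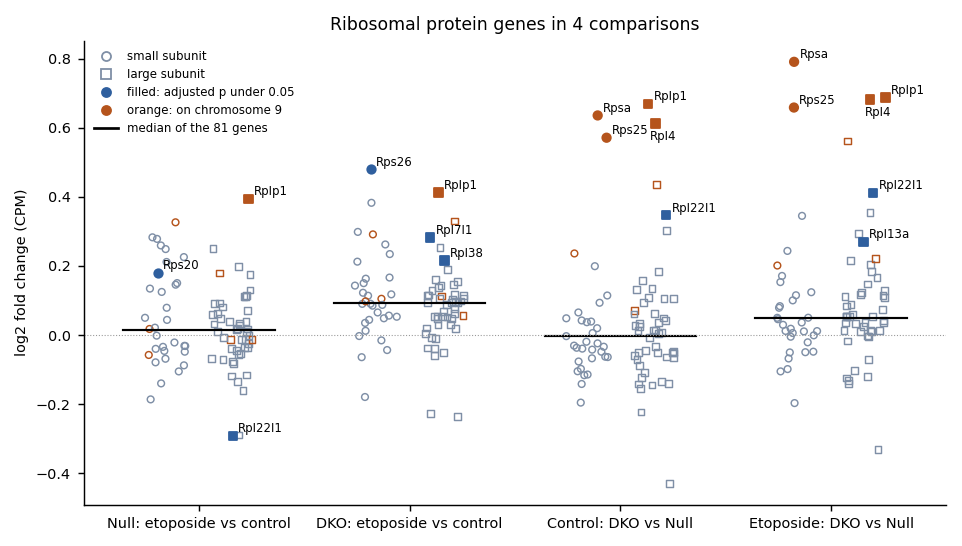
Log2 fold change of CPM for the 81 ribosomal protein genes (y axis) in 4 comparisons (x axis), with circles for the small subunit, squares for the large subunit, filled symbols for genes with an adjusted p under 0.05, orange for genes on chromosome 9 and black lines at the median. The medians lie between -0.0030 and 0.093, and the genes furthest above them in the comparisons of DKO with Null cells are on chromosome 9.

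The comparison of etoposide with control in Null cells asks how the family responds to DNA damage when TFEB and TFE3 are present. The ribosomal protein genes changed little: Rplp1 and Rps20 rose, Rpl22l1 fell, and the other 78 did not pass the test. Over all 18066 genes tested, 39.6% passed it (20.9% were higher and 18.7% lower) by limma-trend with Benjamini-Hochberg adjustment at an adjusted p under 0.05. Among the members 3.70% passed. Without Null etoposide replicate 2 no member was called, and without Null control replicate 2 or Null etoposide replicate 1 the 1 call was Rplp1. When transcript length and GC content were corrected for, 1 member was higher, Rps20, and 6 were lower, and the calls over all genes turned from mostly higher to 17.2% higher and 23.1% lower. Their median log2 fold change was 0.015, beside 0.026 over all genes, and their median size without regard to sign was 0.07, beside 0.36. The 95% interval of the log2 change lay within 1 either way for 80 of the 81 members and within 0.5 for 61, the exception to the first being Rpl17, whose interval was -1.07 to 0.50.

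Rplp1 (ENSMUSG00000007892.8, GRCm38 chr9:61913284-61914542, minus strand) encodes one of the acidic proteins of the stalk that recruits elongation factors to the large subunit. It stood at 673, 636 and 573 CPM in the Null control libraries and at 699, 962 and 829 CPM in the Null etoposide libraries. The groups did not overlap, although the highest control library was close to the lowest etoposide library. The rise was 1.31-fold (log2 0.39, SE 0.11, limma-trend adjusted p = 0.0132), and 3 of the 27 alternative settings lost the call. Rps20 (ENSMUSG00000028234.6, chr4:3831334-3835665, minus strand), a protein of the small subunit's head and one of those reported to bind MDM2, stood at 528, 513 and 526 CPM in controls and 573, 615 and 587 CPM after etoposide. Its libraries lay close together in each group and the groups did not overlap, with a rise of 1.13-fold (limma-trend adjusted p = 0.0406). This small difference fell short of the threshold in 14 of the 27 alternatives, among them each fit without a Null library.

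Rpl22l1 (ENSMUSG00000039221.10, chr3:28805436-28807424, plus strand) is a paralogue of Rpl22 that can take its place in the large subunit and is itself held down by RPL22. It was at 13.4, 16.3 and 13.9 CPM in Null control libraries and 11.2, 11.7 and 12.6 CPM in Null etoposide libraries. All etoposide libraries were below all controls, a log2 change of -0.29 (SE 0.092, limma-trend adjusted p = 0.0239). This call was lost with the direction kept in 5 of the 27 alternatives. It was also lost when measured from the median of the gene's 10 Mb window, where the change was 0.10, in the other direction. The partner gene Rpl22 was at 97.6, 129 and 165 CPM in controls and 123, 122 and 118 CPM after etoposide, with the etoposide values inside the wide control range (log2 -0.077, interval -0.47 to 0.32). In all libraries Rpl22 was the more abundant of the pair, at 44.9 CPM per kilobase of exon against 7.30 for Rpl22l1 in Null control cells.

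**Figure D2:**
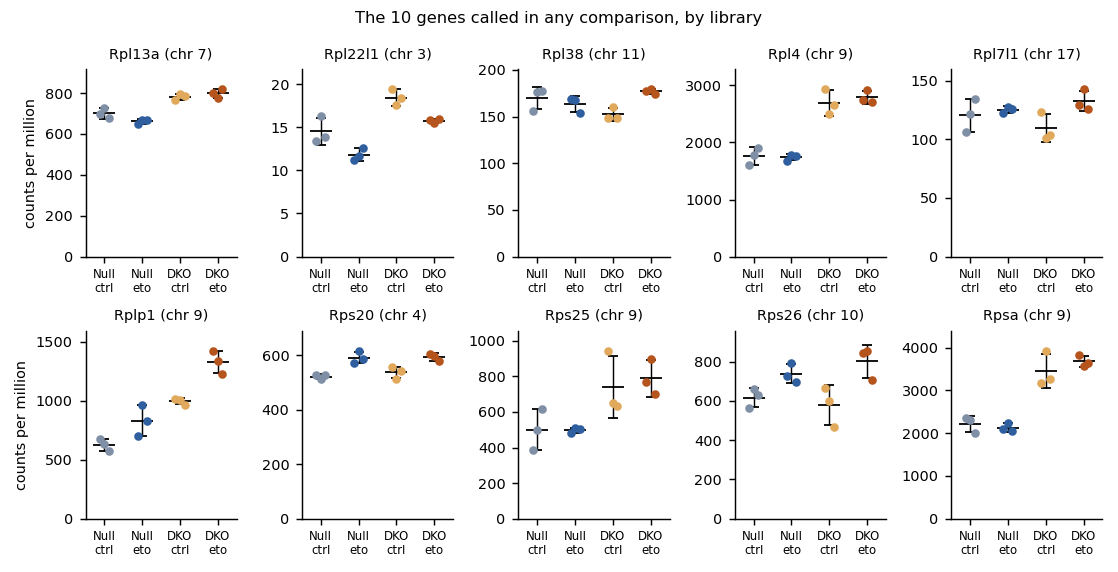
CPM (y axis, from 0) in each library (points) of the 10 ribosomal protein genes called in any comparison, by group (x axis), with black bars for the mean and SD of 3 libraries. Rplp1 has means of 627 (Null control), 830 (Null etoposide), 996 (DKO control) and 1327 CPM (DKO etoposide), while Rpsa, Rpl4 and Rps25 are split by genotype.

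In DKO cells etoposide raised Rps26, Rplp1, Rpl7l1 and Rpl38, and no member was called lower by limma-trend. That is 4 of 81 members (4.94%), beside 39.3% of all genes tested, 20.2% higher and 19.1% lower. The median log2 change of the members was 0.093, beside 0.029 over all genes, and 68 of the 81 estimates were above 0, beside 52.4% of all genes. The count depended on single libraries. Without DKO control replicate 3 or DKO etoposide replicate 1 or 2 it was 2, Rps26 and Rplp1. The upward median rested on DKO control replicate 3, without which it was 0.023, beside 0.021 over all genes, with 50 of 81 estimates above 0. Without DKO control replicate 1, 13 members were higher and 1 lower, and the median log2 change was 0.17. The members called in that setting and not with all libraries were Rpl13, Rpl24, Rpl29, Rpl7a, Rplp0, Rplp2, Rps14, Rps2, Rps27 and Rps9, all higher, and Rps7, lower, while Rpl38 was no longer called.

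Rps26 (ENSMUSG00000025362.6, chr10:128624534-128626747, minus strand), a small subunit protein at the mRNA exit, stood at 667, 601 and 468 CPM in DKO control libraries and 846, 853 and 706 CPM in DKO etoposide libraries. The groups did not overlap, and the rise was 1.39-fold (log2 0.48, SE 0.13, limma-trend adjusted p = 0.00957), past the threshold in all 27 alternatives. In the Null line Rps26 was at 563, 659 and 629.9 CPM before and 728, 791 and 696 CPM after the drug, also without overlap, but did not pass the test (log2 0.26, limma-trend adjusted p = 0.128). Rplp1 rose from 1014, 1007 and 967 to 1418, 1336 and 1227 CPM, 1.33-fold (log2 0.41, limma-trend adjusted p = 0.0104), a step of the same order as in Null cells. By limma-trend it was the only member called after etoposide in both lines. DESeq2 also called Rps20, higher, and Rps7 and Rpl22l1, lower, in both.

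Rpl38 (ENSMUSG00000057322.12, chr11:114668524-114672331, plus strand) encodes a small protein of the large subunit known for its part in the translation of Hox mRNAs. It was at 148, 160.3 and 149 CPM in DKO control and 177, 179 and 174 CPM in DKO etoposide libraries, with every etoposide library above every control (log2 0.22, SE 0.072, limma-trend adjusted p = 0.0312). In the Null line it was at 156, 177 and 177 and 169, 167 and 154 CPM, where the groups overlapped. Rpl7l1 (ENSMUSG00000063888.7, chr17:46773907-46782672, minus strand), a paralogue of Rpl7, went from 123, 101 and 104 to 129.6, 143 and 126 CPM in DKO cells (log2 0.28, limma-trend adjusted p = 0.0386), and DKO control replicate 1 was again the control library nearest to the etoposide values. Rpl7 itself was not called (log2 0.11, interval -0.25 to 0.48). The calls of Rpl38 and Rpl7l1 were lost in 10 and 13 of the 27 alternatives.

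Whether the response differed between the lines was tested as the difference of the 2 responses, DKO minus Null. None of the 81 members passed that test by limma-trend, beside 9.45% of all genes (3.07% higher and 6.39% lower, or 5.37% and 5.82% when transcript length and GC content were corrected for), and 1 had an unadjusted p under 0.05. This was Rpl38, with a difference of 0.27 on the log2 scale (SE 0.10, limma-trend adjusted p = 0.137), and it was the 1 member that DESeq2 called. It was also called when Null control replicate 1 was left out. The median difference over the members was 0.062, beside -0.011 over all genes, and ranged from -0.020 to 0.19 when single libraries were left out. The interval of the difference lay within 1 either way for 79 members and within 0.5 for 39, so that differences of moderate size were not detectable for many of them. The Null and DKO responses of the members, which share no library, had a Pearson r of 0.84 over the 81 genes, beside 0.75 over all genes tested. Both are given as a description because genes of 1 library share its depth and its preparation.

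The comparison of DKO with Null cells asks what the loss of TFEB and TFE3 does to the family. In control cells 5 members were higher in DKO and none was lower: Rplp1, Rpsa, Rpl4, Rps25 and Rpl22l1. That is 6.17% of the members, beside 19.3% of all genes, 10.9% higher and 8.39% lower. Without Null control replicate 1 the calls were 3, Rplp1, Rpsa and Rpl4. The scaling also bears on this comparison: with library size alone 3 members were higher and 2 lower, beside 8.74% of all genes higher and 11.4% lower, and with upper quartile factors all genes were split 9.47% and 10.3%. After etoposide the same 5 and Rpl13a were higher and none was lower, 7.41% of the members beside 33.6% of all genes, 15.9% higher and 17.8% lower. Without DKO control replicate 1 the members called were 10, all higher. Correcting for transcript length and GC content gave 13 members, all higher, and turned the split over all genes to 21.8% higher and 15.3% lower, and the correction for genomic span gave 16, all higher, with 20.7% and 15.1%. The median log2 difference of the members was -0.0030 in control cells and 0.050 after etoposide, beside -0.00085 and -0.012 over all genes.

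The 4 members with the largest differences, Rplp1, Rpsa, Rpl4 and Rps25, all lie on chromosome 9. Rpsa (ENSMUSG00000032518.6, chr9:120127689-120132369, plus strand), a small subunit protein also known as the laminin receptor, was at 2343, 2313 and 2000.3 CPM in Null control libraries and 3173, 3912 and 3275 CPM in DKO control libraries, 1.55-fold higher (limma-trend adjusted p = 0.000417). After etoposide it was at 2102, 2235 and 2049 and 3821, 3578 and 3642 CPM, 1.73-fold higher in DKO (limma-trend adjusted p = 4.55e-05). Every DKO library was above every Null library in both conditions. Rpl4 (ENSMUSG00000032399.8, chr9:64173375-64178666, plus strand), which lines the exit tunnel of the large subunit, was at 1598, 1778 and 1906 CPM in Null control libraries and 2929, 2491 and 2652 CPM in DKO control libraries, 1.53-fold higher (limma-trend adjusted p = 0.000258). After etoposide it was at 1682, 1777 and 1762 and 2739.8, 2922 and 2717 CPM, 1.60-fold higher (limma-trend adjusted p = 6.84e-05).

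Rplp1 carried both kinds of difference. It was 1.59-fold higher in DKO than in Null control cells and 1.61-fold higher after etoposide (limma-trend adjusted p = 0.000765 and 0.000400), so that its 4 groups followed each other without overlap from Null control through Null etoposide and DKO control to DKO etoposide. Rps25 (ENSMUSG00000009927.9, chr9:44407139-44410427, plus strand), a small subunit protein needed by some internal ribosome entry sites, was at 384, 499 and 617 CPM in Null control libraries and 941, 653 and 632 CPM in DKO control libraries. It differed by 1.49-fold (log2 0.57, SE 0.18, limma-trend adjusted p = 0.0410), and 16 of the 27 alternatives lost this call, among them the upper quartile scaling and the fits without DKO control replicate 1 or without Null control replicate 1. After etoposide its values were 480.4, 508 and 503 and 767, 900.3 and 699 CPM, 1.58-fold higher in DKO (limma-trend adjusted p = 0.0126), a call lost without DKO etoposide replicate 2.

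The other 3 members on chromosome 9 were not called in either condition. Rpl14 (ENSMUSG00000025794.9, chr9:120571444-120574654, plus strand) was at 384, 503 and 639.8 CPM in Null and 942, 587 and 552 CPM in DKO control libraries, with 1 Null library above 2 of the DKO libraries (log2 0.43, interval -0.026 to 0.90). After etoposide it was at 481, 515 and 485 and 708, 868 and 628 CPM, with no overlap and a log2 difference of 0.56 (limma-trend adjusted p = 0.0595). This difference passed the threshold in some alternatives, among them DESeq2 and the fits without DKO control replicate 1, Null control replicate 1 or Null control replicate 3. Rpl29 (chr9:106429454-106431568, plus strand) had log2 differences of 0.071 in control cells and 0.22 after etoposide at 21.3 to 29.4 CPM in Null control libraries. Rps27rt (chr9:114982366-114982739, minus strand), at 1.10 to 1.55 CPM, had 0.24 and 0.20.

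Most of chromosome 9 was higher in DKO cells. The 496 other protein-coding genes on it with a mean log2 CPM above 3 differed between the lines by a median of 0.52 (log2, DKO minus Null) in control cells and of 0.47 after etoposide, and 62.3% and 63.5% of them were called higher. On the other 19 chromosomes the medians of such genes lay between -0.013 and 0.073 in control cells and between 0.011 and 0.12 after etoposide, and of their 8249 genes 10.5% and 20.1% were called higher. The 7 members on chromosome 9 had medians of 0.57 and 0.66, and the 74 members elsewhere had -0.027 and 0.040. The etoposide responses of chromosome 9 did not stand out, with medians over the 496 genes of -0.0020 in Null and 0.0024 in DKO cells.

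The difference was not even along the chromosome. In windows of 10 Mb its median in control cells was 0.52 to 0.66 from the start of the chromosome to 70 Mb, 0.029 to 0.056 from 70 to 100 Mb, 0.25 from 100 to 110 Mb, and 0.56 and 0.52 in the last 2 windows. Rps25, Rplp1 and Rpl4 lie in windows with 0.62, 0.54 and 0.54, and Rpsa, Rpl14 and Rps27rt in windows with 0.52, 0.52 and 0.56. Rpl29, with the smallest difference of the 7, lies in the window with 0.25, and the 16 other genes within 1 Mb of it had a median of 0.15. When each gene's difference was measured from the median of its own 10 Mb window, a setting added after the data were seen, 1 member stayed called in control cells, Rpl22l1, and the log2 differences of Rpsa, Rplp1, Rpl4 and Rps25 were 0.19, 0.077, 0.020 and -0.095. After etoposide 4 members were called in this setting, Rpl22l1, Rpl13a, Rps28 and Rps6. What raises the genes of these stretches of chromosome 9 in the DKO libraries was not tested, and from these libraries it cannot be told apart from the loss of TFEB and TFE3, because all DKO libraries carry both.

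**Figure D3:**
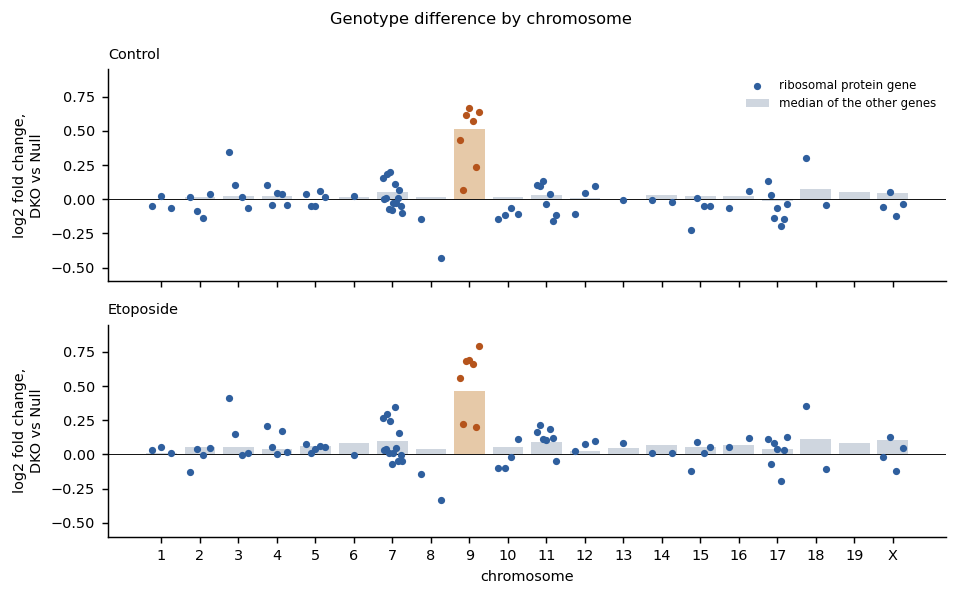
Log2 difference between DKO and Null cells (y axis) by chromosome (x axis) in control cells (top) and after etoposide (bottom), with bars for the median of the other protein-coding genes with a mean log2 CPM above 3 and points for the ribosomal protein genes. The bar of chromosome 9 is at 0.52 and 0.47, all other bars are at 0.12 or less, and the 7 members on chromosome 9 (orange) run from 0.071 to 0.67 and from 0.20 to 0.79.

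Off chromosome 9 the members with a genotype difference were Rpl22l1 and Rpl13a. Rpl22l1 was at 19.4, 17.5 and 18.4 CPM in DKO control libraries, all above the Null control libraries given above, 1.27-fold higher (log2 0.35, SE 0.092, limma-trend adjusted p = 0.0184). This call was lost in 5 of the 27 alternatives: without DKO control replicate 1, without Null control replicate 1 or 3, with library size alone and with only the groups compared. After etoposide it was at 15.8, 15.5 and 15.9 CPM in DKO, 1.33-fold higher than in Null cells (limma-trend adjusted p = 0.00413), and no alternative lost that call. The etoposide step within DKO cells was downward in all libraries, a log2 change of -0.23, but missed the threshold (limma-trend adjusted p = 0.0694). Rpl22l1 was thus higher in DKO than in Null cells and, within each line, lower in every etoposide library than in every control library. The antisense gene Gm33051 overlaps it, and the part of that gene's counts that falls to the shared bases, if spread evenly along its exons, came to 13.8% of the counts of Rpl22l1 over all libraries. The strand setting of the counting is not given in the sources used here, so reads of the pair may not be told apart.

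Rpl13a (ENSMUSG00000074129.14, chr7:45125558-45128761, minus strand), a large subunit protein also known for silencing inflammatory mRNAs in macrophages after interferon-gamma, had the smallest spread of all members (SD 0.038 on the log2 scale within groups). It was at 647, 669.7 and 669.9 CPM in Null etoposide libraries and 801, 776 and 818 CPM in DKO etoposide libraries, without overlap, 1.21-fold higher (limma-trend adjusted p = 0.00540). In control cells the values were 698, 728 and 676 and 766, 795 and 785 CPM, again without overlap but not past the threshold (log2 0.16, limma-trend adjusted p = 0.108). For Gm45713, which overlaps it on the same strand, the share computed in this way was 39.1% of the counts of Rpl13a.

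By role, few genes for proteins that bind MDM2 changed. Of the 15 on the list, Rps20 rose in Null cells, Rps26 rose in DKO cells, Rps25 was higher in DKO than in Null cells in both conditions, and limma-trend with all libraries called none lower in any comparison. That is 6.67% of the list in each comparison, beside 39.6%, 39.3%, 19.3% and 33.6% of all genes in the order given above. Their medians were -0.0018 for the response of Null cells and 0.088 for that of DKO cells. Rpl5 and Rpl11, the core of the MDM2-binding complex, had log2 responses of -0.12 and -0.13 in Null cells and -0.060 and -0.037 in DKO cells, with intervals for Null cells of -0.37 to 0.14 and -0.48 to 0.21. Rps7, another protein of the list, was at 647, 678 and 724 CPM in Null control and 609, 591 and 601 CPM in Null etoposide libraries, without overlap (log2 -0.19, limma-trend adjusted p = 0.0571), and had the same direction in DKO cells (log2 -0.18, limma-trend adjusted p = 0.0662). It was called lower in 10 of the 27 alternatives in Null cells and in 4 of the 27 in DKO cells. DESeq2 and the genomic span correction were among both.

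Of the 9 proteins around the exit tunnel, Rpl4 was the 1 called between the lines and none was called as a response to etoposide. Of the 6 in the decoding and mRNA channel list, Rps20 in Null cells was the 1 call. Lists this short were set beside the same 39.6%, 39.3%, 19.3% and 33.6% of all genes, and nothing particular to them is read from their counts. In the stalk, Rplp1 was called in all 4 pairwise comparisons, while its partners were called in none: Rplp0, the base, had log2 values of 0.11, 0.15, 0.013 and 0.053 for Null response, DKO response, control genotype and etoposide genotype, and Rplp2 had 0.029, 0.11, -0.071 and 0.014 in the same order. Of the paralogue pairs measured, Rpl22l1 and Rpl7l1 were called and their partners were not. Rpl36al and Rpl36a had log2 responses of -0.12 and -0.013 in Null cells and 0.019 and 0.068 in DKO cells, none of them called.

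Ribosomal proteins that the naming rule leaves out gave no calls either. Rps27l, a paralogue of Rps27 that p53 is known to induce, was at 14.7, 24.5 and 46.2 CPM in Null control and 53.5, 64.4 and 59.7 CPM in Null etoposide libraries, without overlap, but just missed the threshold (log2 1.21, SE 0.45, limma-trend adjusted p = 0.0504). In DKO cells it was at 69.8, 22.4 and 22.5 and 63.2, 95.3 and 51.7 CPM, where DKO control replicate 1 lay within the etoposide range (log2 1.05, limma-trend adjusted p = 0.0851). Rps27 had log2 responses of 0.28 and 0.26, with limma-trend adjusted p of 0.134 and 0.166. Fau, which encodes a ribosomal protein fused to a ubiquitin-like protein, and Rack1, a scaffold on the small subunit, had log2 responses of 0.039 and 0.060 in Null cells.

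Many of the members varied together between the libraries of a group. Within groups their log2 CPM varied with a median SD of 0.19, beside 0.21 over all genes tested, from 0.038 for Rpl13a to 0.53 for Rpl17. A single component, taken from 7661 other genes, held 83.4% of the within-group variance of those genes. Of the members, 61 moved with it and 20 against it. The median loading on this component was 0.37 for the members, beside 0.043 over all genes tested. The weight of the component was highest in DKO control replicate 1 (0.57) and Null control replicate 3 (0.39) and lowest in Null control replicate 1 (-0.44) and DKO control replicate 3 (-0.37). In DKO control replicate 1, 60 of the 81 members lay above their group mean, with a median deviation of 0.19, and in Null control replicate 1, 18 did, with a median deviation of -0.19.

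Rps27a and Rpl17 lay at the ends of this component. Rps27a was at 109.8, 158 and 230.0 CPM in the Null control libraries and 247, 113 and 112 CPM in the DKO control libraries, highest in the libraries with the highest weights. Rpl17 ran the other way, at 3319, 2268 and 1582 and 1529, 3326 and 4394 CPM. Rps12, Rps18, Rpl11 and Rpl23 also had large loadings, the first pair with Rps27a and the others with Rpl17. The Null etoposide libraries were far more alike, with weights between -0.023 and 0.036. What this component reflects was not tested.

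**Figure D4:**
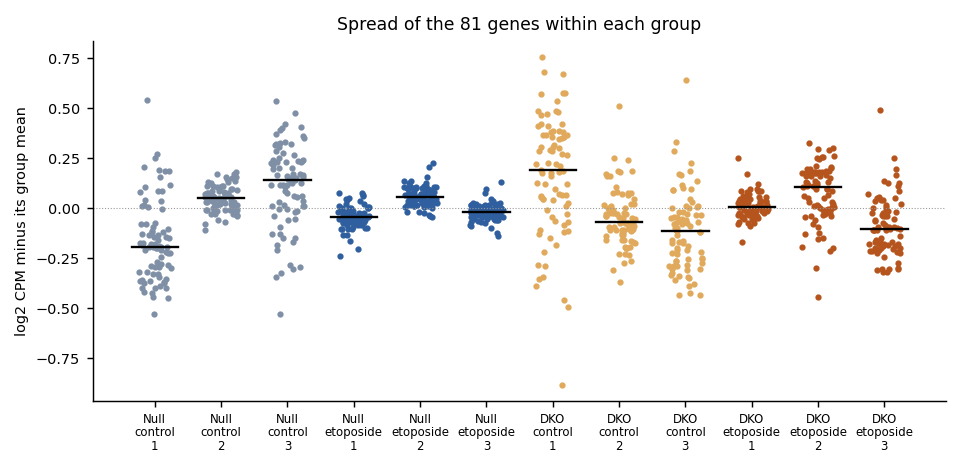
Log2 CPM of each of the 81 genes minus the mean of its group (y axis) in each library (x axis: group and replicate number), with black lines at the median. The medians run from -0.19 in Null control replicate 1 to 0.19 in DKO control replicate 1, and the points lie close together in the 3 Null etoposide libraries, in DKO etoposide replicate 1 and in Null control replicate 2.

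Genes of the machinery that makes and uses ribosomes were read from the same fit. Of 62 ribosome biogenesis genes, 7 rose and 10 fell with etoposide in Null cells, and 13 rose and 7 fell in DKO cells. These are 27.4% and 32.3% of the list, below the 39.6% and 39.3% of all genes. The largest falls were of Tcof1, the nucleolar factor treacle, at log2 -1.04 and -0.91, and, in Null cells, of Ncl, nucleolin, at -0.69, and the largest rise was of Nop16 in DKO cells at 0.65. Of 15 RNA polymerase I genes, 6 rose and 1 fell in Null cells and 5 rose in DKO cells, among them Rrn3, which brings the polymerase to rDNA, at 0.89 and 0.56, Taf1c at 0.73 and 0.57, and Polr1e at 0.48 and 0.63. At 46.7% and 33.3% called, this short list is near the shares of all genes. Between the lines Taf1d, on chromosome 9, was higher in DKO control cells (0.50), and Ttf1 (-0.23) and Rrn3 (-0.17) were lower in DKO cells after etoposide. Same-strand snoRNA genes overlap Taf1d, and their share computed as for Rpl13a was 192% for Gm23455 and 82.6% for Gm24357. Reads of these genes and of Taf1d may therefore not be told apart. Between the lines 3 biogenesis genes were higher and 1 lower in DKO control cells, and 12 were higher and 1 lower after etoposide, 6.45% and 21.0% of the list beside 19.3% and 33.6% of all genes. The leading ones, Imp3 (log2 0.80 and 0.76) and Ppan (0.53 and 0.77), lie on chromosome 9.

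A further list held 20 genes whose mRNAs carry TOP tracts, for translation factors and for other proteins such as Hnrnpa1 and Nap1l1. Of these, 4 fell in Null cells and none rose, led by Hnrnpa1 (-0.73) and Eif3a (-0.45). In DKO cells 2 rose and 3 fell, led by Eif3a (-0.51) and Nap1l1 (-0.47). In all, 4 of 20 and 5 of 20 were called, below the shares of all genes. Eif3g, on chromosome 9, was the 1 gene of the list higher in DKO control cells (0.64), and 5 were higher after etoposide, led by Eif3g (0.79) and Btf3 (0.45), again below the shares of all genes, 19.3% and 33.6%. The genes of the 78 mitochondrial ribosomal proteins, which translate the mitochondrial genome, gave more calls than the 81 members in both responses and between the lines after etoposide: 8 rose and 11 fell in Null cells, led by a fall of Mrps28 (-0.62) and a rise of Mrpl10 (0.52). In DKO cells 20 rose and 5 fell, led by Mrpl10 (0.69) and Mrpl52 (0.67). Between control lines 2 were higher and 2 lower in DKO, 5.13% beside 19.3% of all genes, led by Mrpl4, on chromosome 9 (0.43), and Mrps15 (-0.40), and after etoposide the DKO line had 16 higher and 1 lower than the Null line, led by Mrpl36 (0.67) and Mrps18b (0.55). The shares called in both responses and after etoposide, 24.4%, 32.1% and 21.8%, are below the 39.6%, 39.3% and 33.6% of all genes.

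Of the 13 regulators of TOP mRNA translation, 6 fell and none rose in Null cells, and 4 fell and 2 rose in DKO cells. Both directions together, 46.2% of the list was called in each line, near the shares of all genes. The shares called lower, 46.2% and 30.8%, stand beside 18.7% and 19.1% of all genes, and those called higher, 0% and 15.4%, beside 20.9% and 20.2%. Eif4ebp1, the repressor of cap-dependent translation, was at 98.8 to 115 CPM in Null control and 38.7 to 40.9 CPM in Null etoposide libraries (log2 -1.45, limma-trend adjusted p = 2.13e-07) and also fell in DKO cells (log2 -1.52). Larp1, the protein that binds the TOP tract, was at 398, 346 and 308 CPM in Null control and 194, 189.6 and 191 CPM in Null etoposide libraries (log2 -0.86, limma-trend adjusted p = 7.02e-05). In DKO it was at 309.8, 410.0 and 386 CPM in control and 275, 245 and 277 CPM in etoposide libraries (log2 -0.46, limma-trend adjusted p = 0.00616). After etoposide 5 of the 13 were higher in the DKO line and none was lower, led by Rptor, the mTORC1 subunit Raptor (0.75), and Larp1 (0.47). That is 38.5% of the list, beside 33.6% of all genes called in either direction and 15.9% called higher.

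Among 8 factors linked to ribosomal protein promoters the largest difference was that of Myc, which drives ribosomal genes in many cell types. It was at 0.195, 0.0808 and 0.247 CPM in Null control libraries and 7.48, 11.4 and 10.5 CPM in DKO control libraries (log2 5.45, SE 0.26, limma-trend adjusted p = 1.47e-08), and at 0.757, 0.701 and 0.791 and 7.34, 6.38 and 7.46 CPM after etoposide (log2 3.14). No Null library came near a DKO library. The members off chromosome 9 had a median log2 difference of -0.027 in control cells, and whether Myc bears on their level was not tested. Tbpl1, a TBP-like factor linked to TOP promoters in flies, fell with etoposide in both lines, at 56.5 to 63.9 and then 32.0 to 33.2 CPM in Null and at 67.6 to 74.6 and then 24.1 to 28.3 CPM in DKO cells (log2 -0.88 and -1.49), and Gabpb1, a subunit of the factor GABP, fell in DKO cells (-0.56). Between the lines after etoposide, 2 of the 8 were higher in DKO cells, Myc and its partner Max (0.42), and 4 were lower. Of this short list 2 rose and 3 fell in Null cells, 1 rose and 4 fell in DKO cells, and 2 were higher and none lower between the control lines. Of all genes, 39.6%, 39.3% and 19.3% were called in these comparisons and 33.6% between the lines after etoposide.

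**Figure D5:**
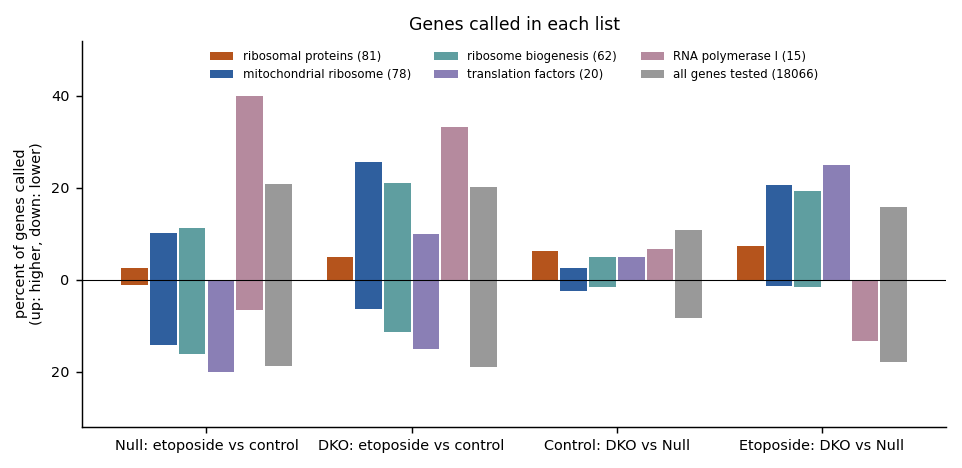
Percent of the genes in each list (colours, with the number tested in the key) called higher (bars above 0) or lower (bars below 0) at an adjusted p under 0.05 in 4 comparisons (x axis). The ribosomal proteins lie at 3.70%, 4.94%, 6.17% and 7.41% called in all, and all genes tested at 39.6%, 39.3%, 19.3% and 33.6%.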

How the data were processed

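RNA from 12 samples of RAW264.7 cells was sequenced by the authors as paired reads from stranded, rRNA-depleted libraries. More than 1 RNA kit is named in the methods without saying which library had which. Reads were aligned with HISAT2 to mm10, per the labels' processing notes, and counted per gene with HTSeq by the methods or featureCounts by the processing notes. The authors deposited whole-number read counts for each gene and did not normalize them. The authors' strand setting is not given in the sources used here.

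Genes passing filterByExpr on the 4 groups (18066 of 32688, 99.96% of counts) were scaled by TMM (edgeR 4.0.16), and log2 CPM (prior count 3) was fitted with limma 3.58.1 (limma-trend, robust empirical Bayes, all 12 libraries, 1 mean per group, two-sided, Benjamini-Hochberg over all genes). Genes were called at an adjusted p under 0.05. Intervals are 95%. The fit was tested on simulated counts. Coordinates come from GENCODE M21 (GRCm38), promoters from RefSeq. Alternatives were DESeq2 1.42.0, edgeR's quasi-likelihood test, 3 scalings, scaling without mitochondrial transcripts, no filter, prior count 0.5, only the groups compared, corrections for GC content with transcript length or for genomic span, the replicate number as a block, each library left out, members summed with their pseudogenes, and a 10 Mb window correction. Shared replicate numbers did not pair the samples.

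The members and all gene lists were chosen with earlier results of these data known. Named were, per comparison, the 5 highest and 5 lowest called members, genes from the MDM2-binding list and the paralogue pairs, Rps27l, Fau, Rack1, the 2 called genes with the largest change in each other list, Tfeb and Tfe3. Named after their values were seen were the other members on chromosome 9, Rpl17, Rplp0, Rplp2, the members with large loadings and those called only in an alternative. Results of 3 genes are not reported here. Depth limits precision for Rps27rt, with as few as 34 counts in a library, and the other members had at least 412.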

Additional observations from a re-analysis of the deposited data

Results flagged for a closer look

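No member was flagged. Among the other genes named, 6 had etoposide responses that differed between the lines by the test of the difference itself, given as DKO minus Null on the log2 scale with limma-trend adjusted p-values, with no check for single outlying libraries because groups of 3 are too small for one. For Myc the difference was -2.31 (adjusted p = 0.00134): control libraries held 0.0808 to 0.247 CPM and etoposide libraries 0.701 to 0.791 CPM in Null, and 7.48 to 11.4 and 6.38 to 7.46 CPM in DKO cells. For Tbpl1 it was -0.61 (limma-trend adjusted p = 0.00456), a deeper fall in DKO cells. For Rrn3 it was -0.32 (limma-trend adjusted p = 0.0354), with 101 to 106 CPM in control and 188 to 199 CPM in etoposide libraries of Null, and 111 to 118 and 165 to 177 CPM in those of DKO cells. The mitochondrial ribosomal protein genes Mrpl36 and Mrps27 had differences of 0.63 and 0.52 (limma-trend adjusted p = 0.0101 and 0.00907), with responses of -0.34 and -0.42 in Null and 0.30 and 0.097 in DKO cells. Tfeb, one of the disrupted genes, had a difference of 1.16 (limma-trend adjusted p = 0.00499), with 16.6 to 17.2 CPM in control and 7.10 to 7.95 CPM in etoposide libraries of Null cells, against 3.14 to 5.25 and 4.27 to 4.44 CPM in DKO cells.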

How the results depend on the processing

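Each comparison was refitted under 27 alternatives (26 for the difference of responses). Of 134 refitted medians, 133 moved by less than 0.134, the SD of the member median between replicates, and 1 moved more, the control genotype median of -0.14 without DKO control replicate 1. Counts of called members moved more. In the Null response the 3 calls (2 higher, 1 lower) became 7 (1 higher, 6 lower) when GC content and transcript length were corrected for. In the DKO response the 4 became 7 with DESeq2, and 2 without the filter on low counts or with only the groups compared. Between the control lines the 5 became 3 with only the groups compared and 1 with the 10 Mb window correction. After etoposide the 6 became 13 with the GC and length correction, 16 with the genomic span correction and 13 with only the groups compared. For the difference of responses DESeq2 called 1. With single libraries left out, the counts ran from 0 to 4 and the medians from -0.066 to 0.12 for the Null response, from 2 to 14 and from 0.023 to 0.17 for the DKO response, from 3 to 5 and from -0.14 to 0.058 between control lines, from 6 to 10 and from -0.0019 to 0.10 after etoposide, and from 0 to 1 and from -0.020 to 0.19 for the difference of responses. The libraries behind the largest moves were Null etoposide replicate 2 (0 calls without it) and Null control replicate 2 and Null etoposide replicate 1 (1 each) in the Null response; DKO control replicate 1 (14 calls without it), DKO control replicate 3 and DKO etoposide replicates 1 and 2 (2 each) in the DKO response; Null control replicate 1 (3 calls without it) between control lines; and DKO control replicate 1 (10 calls without it) after etoposide. Of 18 called values of named members, 4 kept their call in every alternative, and 2 changed sign under the window correction, Rpl22l1 in the Null response (0.10) and Rps25 between control lines (-0.095). With library size alone the calls between control lines were 3 higher and 2 lower, and over all genes 43.4% of the calls were higher, against 56.6% with TMM. With the GC and length correction and the genomic span correction the share of higher calls went from 52.7% to 42.6% and 41.5% in the Null response, from 47.2% to 58.8% and 57.8% after etoposide and from 32.4% to 48.0% and 44.2% for the difference of responses. Replicate numbers are shared by the groups, but of 18 same-number pairs 1 had correlated deviations over 0.1 (r from -0.54 to 0.39). By the mean correlation with each number, 0 of the 12 libraries correlated best with their own number. In single pairs, DKO control and DKO etoposide replicates 3 had their highest correlation with each other. With the replicate block the calls were 2, 3, 4, 6 and 0 in the order above, and with the block and the GC and length correction 5, 4, 4, 9 and 0. The cause of these moves was not tested.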

Other observations

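Counting touches these genes in 2 measurable ways. Pseudogenes annotated for 56 of the 81 members stand in the table, up to 17 for 1 gene (Rpl31), and adding their counts to their parents moved no count of called members by more than 1.5 times. The counts of an overlapping gene that fall to the shared bases, if spread evenly along its exons, came to more than 5% of the member's counts over all libraries for 6 members, among them Gm28037 79.4% for Rpl24, Gm27597 45.6% for Rpl19, Gm45713 39.1% for Rpl13a, the antisense Gm33051 13.8% for Rpl22l1 and Wdr38 12.5% for Rpl35.

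The members are short and compact genes, with a median genomic span of 3243 bases against 13806 over all genes tested, a median transcript length of 1106 against 2653 bases and a median transcript GC content of 50.9% against 49.5%. In the comparison of the lines after etoposide, the correction for GC content together with transcript length and that for genomic span added 7 and 10 called members, all higher in DKO.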
